A study of Mus musculus with 8 samples.

Results

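The 40 genes described here encode proteins that license replication origins, unwind and copy DNA, supply its building blocks, drive the cell cycle and carry out mitosis. They were chosen by name for these functions, out of the 21951 protein-coding genes of the mouse annotation, and each was looked up in 2 lists of H3K27ac peaks. H3K27ac is acetylation of lysine 27 of histone H3, a mark found at active promoters and enhancers, and it was mapped by ChIP-seq in Oli-neu, a mouse oligodendroglial cell line derived from embryonic oligodendrocyte progenitor cells (C57BL/6). The series also holds ATAC-seq of differentiating Oli-neu cells with control or Padi2 siRNA, which was not analysed here. Proliferating cells (1 library) were grown with 10 ng/ml bFGF and 1 ng/ml Pdgf-BB. Differentiating cells (1 library) were kept without growth factors and with 1 µM PD174265, an erb inhibitor, for 1 day according to the sample labels, while the study's culture methods describe a longer period for this line. The medium in which all cells were expanded also held thyroid hormones (T3 and L-thyroxine), and the labels describe the differentiating cells as control cells.

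Proliferating progenitors copy their genome once per division, and their withdrawal from the cell cycle precedes the formation of myelin. Licensing factors load the Mcm helicase onto origins in G1, cyclin-dependent kinases with their cyclins start S phase and mitosis, and E2F factors, held in check by the pocket proteins of the retinoblastoma family, switch on genes of the G1/S transition. Genes of G2 and M are transcribed later in the cycle, and many of them carry a cell cycle homology region (CHR) bound by the DREAM and MuvB complexes together with CCAAT boxes bound by NF-Y.

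The promoter sequences of 6 of the 40 genes are shown because they span the range found in the peak lists and hold the motifs counted further on. Mcm5 had no peak near its transcription start site (TSS) in either list, Mcm6 had a peak downstream of the TSS in the differentiating list alone, Cdk1, Top2a and Cdc20 had a promoter peak in both, and Rbl1 had the highest-ranking peak of all 40 genes. Each line gives the 250 bases before the TSS, 5′ to 3′ on the strand of the gene, from GRCm38. Capitals mark the letters of an E2F word (TTTCCCGC, TTTGGCGC, TTTCGCGC or TTTGCCGC), a CHR word (TTTGAA or TTCGAA) or a CCAAT box (CCAAT), on either strand.
Mcm5, chr8:75109319-75109568, plus strand: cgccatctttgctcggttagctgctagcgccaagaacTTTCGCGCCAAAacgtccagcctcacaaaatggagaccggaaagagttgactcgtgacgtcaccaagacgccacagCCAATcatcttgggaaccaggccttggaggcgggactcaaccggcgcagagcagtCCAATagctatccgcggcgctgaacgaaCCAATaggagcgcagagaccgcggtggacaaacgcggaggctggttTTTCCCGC
Mcm6, chr1:128359665-128359914, minus strand: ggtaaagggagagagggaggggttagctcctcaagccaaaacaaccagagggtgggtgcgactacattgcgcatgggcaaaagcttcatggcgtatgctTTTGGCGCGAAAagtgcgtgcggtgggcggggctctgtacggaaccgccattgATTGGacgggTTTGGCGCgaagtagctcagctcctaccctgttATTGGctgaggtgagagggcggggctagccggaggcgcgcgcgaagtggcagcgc
Cdk1, chr10:69352939-69353188, minus strand: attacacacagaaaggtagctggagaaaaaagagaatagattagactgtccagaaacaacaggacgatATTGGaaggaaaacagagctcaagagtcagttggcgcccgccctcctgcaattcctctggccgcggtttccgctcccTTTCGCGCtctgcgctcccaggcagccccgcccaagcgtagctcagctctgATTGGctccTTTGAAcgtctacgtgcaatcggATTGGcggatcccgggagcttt
Rbl1, chr2:157204535-157204784, minus strand: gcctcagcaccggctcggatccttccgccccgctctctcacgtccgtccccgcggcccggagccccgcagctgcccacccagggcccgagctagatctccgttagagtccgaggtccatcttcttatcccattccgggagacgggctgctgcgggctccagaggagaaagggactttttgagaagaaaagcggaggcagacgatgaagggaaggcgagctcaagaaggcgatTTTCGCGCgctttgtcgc
Top2a, chr11:99024190-99024439, minus strand: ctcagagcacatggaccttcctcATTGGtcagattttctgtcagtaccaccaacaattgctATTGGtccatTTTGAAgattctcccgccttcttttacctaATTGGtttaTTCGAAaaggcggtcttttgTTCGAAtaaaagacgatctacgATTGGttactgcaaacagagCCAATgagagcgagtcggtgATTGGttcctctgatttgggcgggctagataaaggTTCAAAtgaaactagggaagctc
Cdc20, chr4:118437353-118437602, minus strand: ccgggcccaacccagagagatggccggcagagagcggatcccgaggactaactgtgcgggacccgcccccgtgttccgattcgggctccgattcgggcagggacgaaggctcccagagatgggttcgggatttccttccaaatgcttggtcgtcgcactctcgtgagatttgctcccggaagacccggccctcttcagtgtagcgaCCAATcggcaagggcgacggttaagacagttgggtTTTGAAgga
In Mcm5 and Mcm6 the capitals that run beyond 8 letters are overlapping E2F words on opposite strands. Top2a held 4 CHR words and 6 CCAAT boxes, the largest number of each among the 40 genes, and no E2F word. Such matches are letters in a window and were not tested for binding of any factor.

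How many reads stand behind a peak is unknown, since the lists give none, and with 1 library per state no difference between the states could be tested. By the study's methods the differentiating library had more uniquely mapped reads than the proliferating one, and the effect of this on the lists was not tested. The proliferating list held 28924 peaks and the differentiating list 27965, with a median −log10 q of 1.93 and 1.89 (q is the peak caller's p-value adjusted for multiple testing). Since the values of the lists were scaled separately, peaks were ranked within their own list, as the percentile of −log10 q among all its peaks. A gene without a peak is a gene where none passed the caller's threshold, and fewer cells with the mark and less of the mark per cell cannot be told apart. Of 6 oligodendrocyte lineage markers, Sox10, Olig1 and Olig2 had a promoter peak in both lists, while Nkx2-2, Cspg4 and Pdgfra had none. Within 1000 bp of the TSS, Sox10, Olig1 and Cspg4 had a peak in both lists, Olig2 in the proliferating list alone, and Nkx2-2 and Pdgfra in neither. None of 4 astrocyte or 4 microglia markers had a promoter peak, and of 4 neuron markers only Syt1 did, in the differentiating list.

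A peak lay in the promoter region (from 3000 bp before the TSS to 100 bp after it) of 19 of the 40 genes in the proliferating list (47.5%, against 23.7% of all protein-coding genes) and of 20 in the differentiating list (50%, against 27.7%). In both lists, 15 of the genes were marked (37.5%, against 17.6%) and 24 in either (60%, against 33.8%). The 4 genes Ccna2, Ccnb1, Ccne2 and Rb1 were marked in the proliferating list alone (10%, against 6.13%). The 5 genes Mcm2, Ccnb2, Mki67, Aurkb and Plk1 were marked in the differentiating list alone (12.5%, against 10.1%). Of the 19 genes marked in the proliferating list, 15 were thus also marked in the differentiating list, near the 3867 of 5212 over all protein-coding genes.

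Promoters rich in CpG are marked more often than others, and most of the 40 genes have one. By the ratio of observed to expected CpG in the 250 bp before to 50 bp after the TSS, 35 of the 40 genes (87.5%) were CpG-rich (ratio of at least 0.6), against 44.4% of the 21938 protein-coding genes with a complete window. Among the 35, a promoter peak was found for 15 (42.9%) in the proliferating list, against 41.4% of all CpG-rich promoters, and for 16 (45.7%) in the differentiating list, against 48.8%. Both lists held one for 11 (31.4%, against 32.8%) and either list for 20 (57.1%, against 57.4%). The counts over these 35 genes were thus near those of CpG-rich promoters in general and are not a result about replication and mitosis genes. The 5 members below the ratio were Mcm3, Mcm7, Rrm1, Tyms and Tk1. All but Tk1 had a promoter peak in both lists (4 of 5, against 5.46% of the promoters that are not CpG-rich, and 15% in either list), and the Mcm7 peaks also covered the start of a neighbouring gene. The Mcm7 start used here lay 539 bp from its nearest RefSeq start, so its CpG ratio does not describe the sequence at that start. With 5 genes this is a count of few promoters and no test was made of it.

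**Figure D1:**
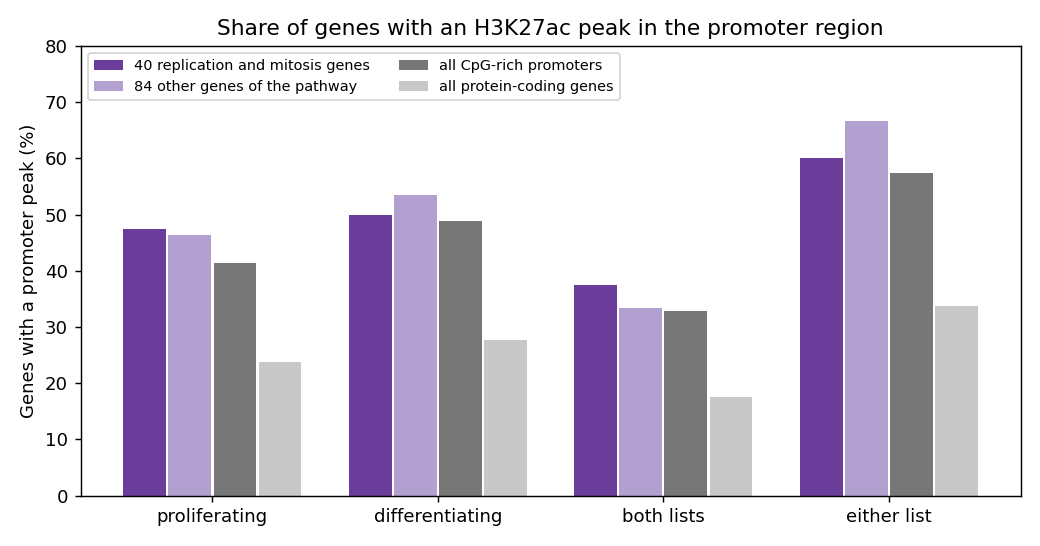
Percentage of genes with an H3K27ac peak in the promoter region (vertical axis) in the proliferating list, the differentiating list, both or either, for the 40 genes, 84 other replication and mitosis genes, all 9734 CpG-rich promoters and all 21951 protein-coding genes; bars are counts of 1 library per state and have no error. The 40 genes reach 60% in either list, above the 33.8% of all genes and beside the 57.4% of CpG-rich promoters.

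Within 1000 bp on both sides of the TSS, a window that also takes in the start of the gene, a peak was found for 24 of the 40 genes in the proliferating list (60%, against 26.9% of all protein-coding genes) and for 25 in the differentiating list (62.5%, against 31.1%). Both lists held one for 19 genes (47.5%, against 21.6%) and either list for 30 (75%, against 36.4%). The TSS base itself was under a peak for 11 genes in the proliferating list (27.5%, against 16%), for 15 in the differentiating list (37.5%, against 20.4%) and for 8 in both (20%, against 11.2%). These 8 were Mcm3, Rrm1, Cdk2, Rbl1, Foxm1, Top2a, Cdc20 and Birc5. Most of the 40 genes have a CpG-rich promoter. The share of CpG-rich promoters with a peak within 1000 bp or over the TSS was not counted, here or for the role groups. The part of CpG content in these contrasts with all protein-coding genes was thus not tested. The 10 genes with no peak within 1000 bp in either list were Mcm2, Mcm4, Mcm5, Orc1, Cdk6, E2f2, Rbl2, Mybl2, Bub1 and Bub1b.

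**Figure D2:**
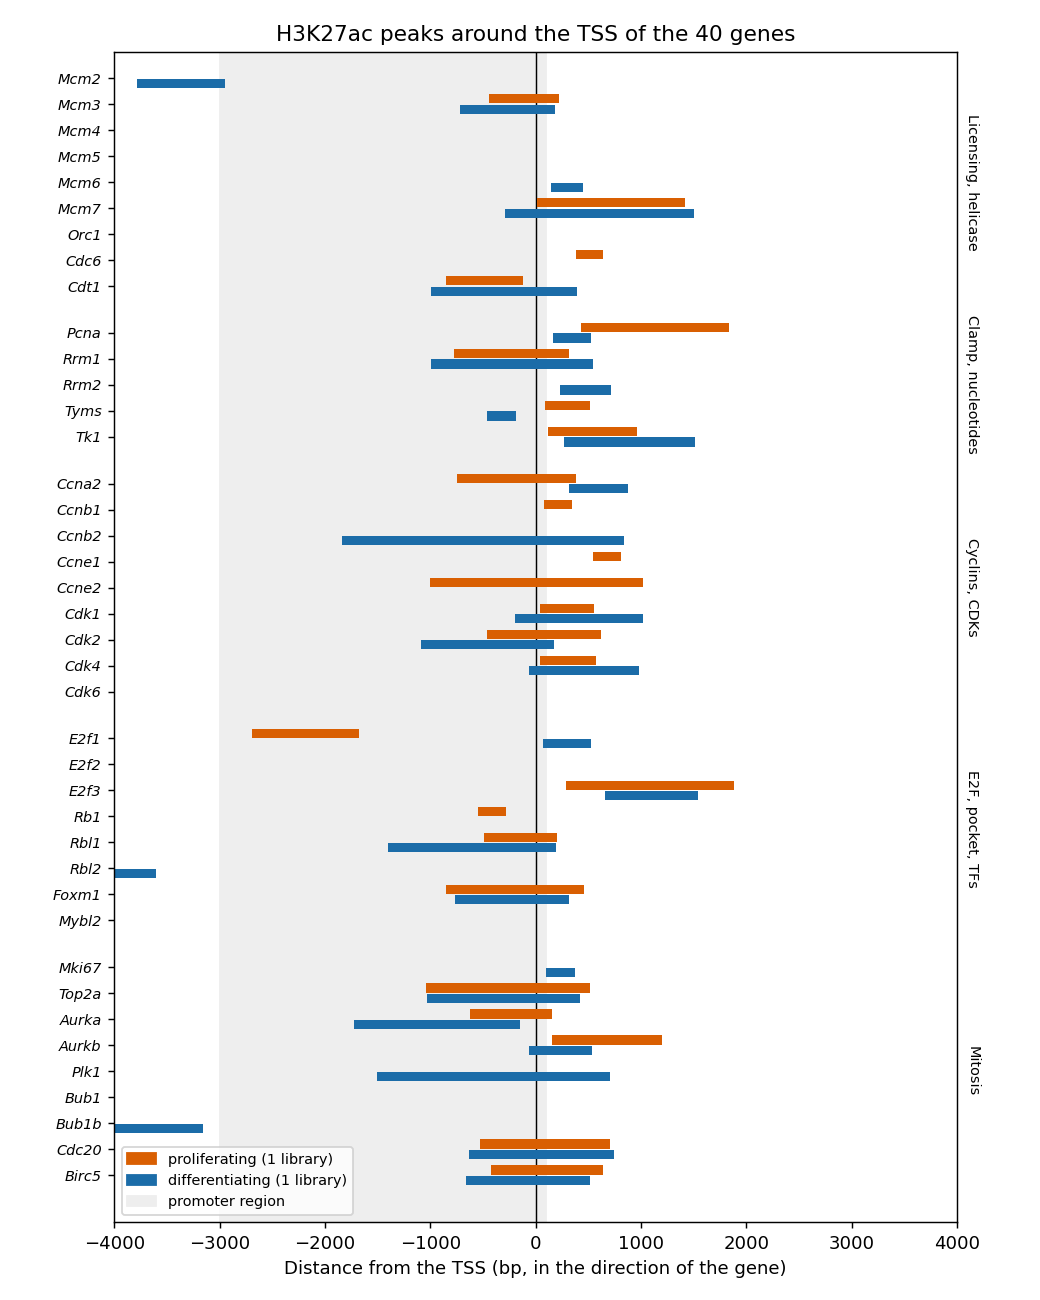
H3K27ac peaks (bars) of the proliferating library (orange) and the differentiating library (blue) by distance from the TSS in bp (horizontal axis, gene direction to the right, cut at 4000 bp) for the 40 genes, ordered by role, with the promoter region shaded. Peaks of both colours lie within 1000 bp of the TSS for 19 genes, and Mcm4, Mcm5, Orc1, Cdk6, E2f2, Mybl2 and Bub1 have no bar.

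Of the 9 licensing and helicase genes, 4 had a promoter peak and 5 a peak within 1000 bp of the TSS in either list, against 33.8% and 36.4% of all protein-coding genes. Mcm3, Mcm7 and Cdt1 carried one in both lists, Mcm2 in the differentiating list alone, and Mcm4, Mcm5, Mcm6, Orc1 and Cdc6 in neither. Mcm2 to Mcm7 form the replicative helicase, and 3 of these 6 subunit genes had a promoter peak. At Mcm3 the peak from -440 to 221 bp in the proliferating list (fold enrichment 3.08, −log10 q 1.72, percentile 34.9) and the peak from -716 to 186 bp in the differentiating list (fold enrichment 2.78, −log10 q 1.31, percentile 12.3) overlapped over 94.7% of the former. Both ranked low in their lists. At Mcm7 the proliferating peak (16 to 1417 bp, −log10 q 1.97, percentile 51.9) lay whole inside the differentiating peak (-290 to 1499 bp, −log10 q 2.23, percentile 63.8). Both of these peaks also covered the TSS of Ap4m1, a subunit of an adaptor complex, whose transcript starts within Mcm7 on the other strand, so the mark cannot be assigned to either gene. Cdt1, which brings the helicase to origins, had a proliferating peak that ended 122 bp before the TSS (−log10 q 2.77, percentile 78.6) and a differentiating peak that ran across it from -997 to 390 bp (−log10 q 3.28, percentile 84.2).

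Mcm2 was counted through the end of a peak from -3782 to -2955 bp (−log10 q 1.84, percentile 47.6), which covered the TSS of the neighbouring Tpra1, and no peak of either list lay within 1000 bp of the Mcm2 start. Mcm6 and Cdc6, the ATPase that loads the helicase with the origin recognition complex, each had a short peak after the TSS in 1 list. That of Mcm6, from 149 to 451 bp in the differentiating list, ranked at percentile 86.1 (−log10 q 3.46). That of Cdc6, from 380 to 642 bp in the proliferating list, ranked at percentile 72.8 (−log10 q 2.51). The other licensing genes had no peak near the start. The nearest peak to Mcm4 was 5190 bp away in the proliferating and 5178 bp in the differentiating list, that to Mcm5 11647 and 75124 bp, and that to Orc1, a subunit of the origin recognition complex, 40284 and 39969 bp.

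All 5 genes of the replication clamp and deoxynucleotide supply had a peak within 1000 bp of the TSS in at least 1 list (against 36.4% of all protein-coding genes), and for Pcna, Rrm2 and Tk1 it lay downstream of the promoter region. Rrm1, the large subunit of ribonucleotide reductase, had a peak over the TSS in the proliferating list (-772 to 316 bp, −log10 q 2.31, percentile 66.7) that lay whole inside that of the differentiating list (-993 to 547 bp, −log10 q 3.11, percentile 82.1). Its partner Rrm2 had a peak in the differentiating list alone, from 233 to 711 bp (−log10 q 1.72, percentile 40.8), and the nearest proliferating peak was 56575 bp away. Tyms, thymidylate synthase, was marked on different sides of the TSS. Its proliferating peak ran from 89 to 520 bp (−log10 q 3.76, percentile 90.3) and its differentiating peak from -466 to -188 bp (−log10 q 1.59, percentile 31.8), with no base in common. Pcna, the sliding clamp, had a proliferating peak from 432 to 1833 bp (percentile 37.1) and a differentiating peak from 169 to 524 bp (percentile 49.5) that shared 26.1% of the latter. Tk1, thymidine kinase, had peaks from 117 to 958 bp (percentile 45.8) and from 265 to 1514 bp (percentile 81.1), and the proliferating peak also covered the TSS of Afmid on the other strand.

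Among 9 cyclins and cyclin-dependent kinases, the promoters of 3 of 4 kinases were marked in both lists, and each of 4 of the 5 cyclin promoters in 1 list (7 of 9 in either, against 33.8% of all protein-coding genes and 57.4% of CpG-rich promoters, to which all 9 belong). Cdk1, the kinase of mitosis, had a proliferating peak from 43 to 550 bp (fold enrichment 3.07, −log10 q 1.90, percentile 48.4) that lay whole inside the differentiating peak from -199 to 1022 bp (fold enrichment 3.36, −log10 q 3.23, percentile 83.7). Cdk2, which acts at the start of S phase, ranked the other way, with percentile 91.2 (−log10 q 3.89) in the proliferating and 42.3 (−log10 q 1.74) in the differentiating list. Cdk4, the G1 kinase that works with D-type cyclins, had the widest gap of the 40 genes. Its proliferating peak ranked at percentile 5.99 (−log10 q 1.37, 46 to 568 bp) and its differentiating peak at 93.7 (−log10 q 4.81, -64 to 980 bp), the highest rank of the 40 genes in that list. Cdk6, the other G1 kinase, had no peak within 1000 bp of its start, and 1 peak in an intron of each list, 109171 bp (proliferating) and 91872 bp (differentiating) from the TSS.

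Of the cyclin genes, Ccna2, the cyclin of S and G2, had a peak over the TSS in the proliferating list (-747 to 383 bp, −log10 q 1.95, percentile 51.2) and one after it in the differentiating list (320 to 879 bp, −log10 q 1.65, percentile 36.1). These 2 peaks shared 5.66% of the proliferating peak, so the gene counted as marked in the proliferating list alone by its promoter and in both by the wider window. The mitotic cyclin Ccnb1 had a peak of 263 bp, the shortest width in the proliferating list, from 80 to 342 bp (−log10 q 1.93, percentile 49.8) and none nearer than 41803 bp in the differentiating list. The other mitotic cyclin, Ccnb2, had the reverse pattern, with a differentiating peak 2683 bp wide across the TSS and none nearer than 50879 bp in the proliferating list. That peak was among the weakest of its list (−log10 q 1.08, q = 0.0831, percentile 0.325). The G1/S cyclins Ccne2 (-999 to 1021 bp, −log10 q 2.13, percentile 59.7) and Ccne1 (547 to 809 bp, −log10 q 2.14, percentile 60.1) had a peak in the proliferating list alone, and the nearest differentiating peaks were 35068 and 68712 bp away. The peaks of all 5 cyclin genes ranked at or below percentile 60.1, and whether their mark differed between the states was not tested.

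The 8 transcriptional regulators, 4 of them with a promoter peak in either list (against 33.8% of all protein-coding genes and 57.4% of CpG-rich promoters), included the strongest peak of the 40 genes. Rbl1 encodes p107, a pocket protein that holds E2F targets silent, and its proliferating peak (chr2:157204333-157205027, -493 to 201 bp) had a fold enrichment of 5.28 and a −log10 q of 7.76, at percentile 98.7. Its differentiating peak, from -1403 to 193 bp, had a fold enrichment of 3.54 and a −log10 q of 2.88, at percentile 78.7, and covered 98.8% of the proliferating peak. Rbl1 was the only one of the 40 genes with a promoter peak at −log10 q of at least 5, in the proliferating list (1 of 40, 2.5%, against 3.27% of all protein-coding genes). None reached it in the differentiating list (against 4.25%), and either list thus held 1 (against 5.81%). Rb1, the retinoblastoma protein gene, had a peak in the proliferating list alone, from -545 to -283 bp (−log10 q 2.45, percentile 71.1). Rbl2, which encodes p130, the pocket protein of resting cells, had none within 1000 bp, and the nearest was 114342 bp from the TSS in the proliferating and 3605 bp upstream in the differentiating list.

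The 3 activating E2F genes differed in where they were marked. E2f1 had a proliferating peak far upstream (-2693 to -1681 bp, −log10 q 1.41, percentile 8.07) and a differentiating peak just after the TSS (71 to 525 bp, percentile 59.2), so that it was counted in both lists through separate peaks. E2f3 had peaks downstream of the TSS in both lists (291 to 1887 bp, percentile 69.7, and 662 to 1546 bp, percentile 59.7). The nearest peaks to the E2f2 start lay within the gene, 4697 and 6543 bp away. Foxm1, the activator of G2/M genes, had peaks over the TSS in both lists (-854 to 454 bp, −log10 q 2.79, percentile 79.1, and -767 to 318 bp, −log10 q 4.12, percentile 90.6). Both also covered the TSS of Rhno1, a checkpoint gene that starts 56 bp away on the other strand. Mybl2, which acts with Foxm1 and the MuvB complex, had its nearest peaks 21471 and 4598 bp into the gene.

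The mitotic genes had a promoter peak in 7 of 9 cases (against 33.8% of all protein-coding genes and 57.4% of CpG-rich promoters, to which all 9 belong), 4 of them in both lists (against 17.6% and 32.8%). Top2a, which untangles sister chromatids, had nearly coincident peaks from -1044 to 520 bp (fold enrichment 3.92, −log10 q 3.52, percentile 88.5) in the proliferating list and from -1036 to 416 bp (fold enrichment 3.30, −log10 q 2.87, percentile 78.5) in the differentiating list. Birc5, the survivin subunit of the chromosomal passenger complex, had peaks from -420 to 635 bp (−log10 q 2.86, percentile 80.2) and from -664 to 517 bp (−log10 q 3.91, percentile 89.4). Cdc20, an activator of the anaphase-promoting complex, had a proliferating peak (-525 to 703 bp, −log10 q 2.19, percentile 62.2) that lay whole inside the differentiating peak (-634 to 747 bp, −log10 q 2.80, percentile 77.3). In all 3 genes the TSS was under a peak in both lists.

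Aurka, the kinase of spindle poles, had a proliferating peak across the TSS (-626 to 159 bp, percentile 89.3) and a differentiating peak upstream of it (-1720 to -146 bp, percentile 77.3), and both covered the TSS of Cstf1, a gene of mRNA 3′ end processing. Aurkb, the kinase of the passenger complex, had a differentiating peak over the TSS (-58 to 537 bp, percentile 67.9) and a proliferating peak that began 151 bp after it (151 to 1202 bp, percentile 73.9), outside the promoter region, so it was marked in both lists by the wider window. Mki67, the Ki-67 proliferation antigen, had a peak of 279 bp in the differentiating list alone (97 to 375 bp, −log10 q 3.29, percentile 84.4), and the nearest proliferating peak was 4193 bp upstream. Plk1, a mitotic kinase, had a peak from -1508 to 701 bp in the differentiating list alone (−log10 q 1.83, percentile 47.0), and the nearest proliferating peak was 31219 bp away. The spindle checkpoint genes Bub1 and Bub1b had none near the start. Their nearest peaks were 24705 (proliferating) and 57281 bp (differentiating) from Bub1, and 53228 and 3162 bp from Bub1b.

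Ranks within the lists placed the promoter peaks of these genes among ordinary promoter peaks. Taking the strongest promoter peak of each gene, the percentile was 66.7 in the median over the 19 genes of the proliferating list (range 5.99 to 98.7), against 77.6 over the 5212 protein-coding genes with one. Over the 20 genes of the differentiating list it was 77.3 (range 0.325 to 93.7), against 76.9 over 6085 genes. The median −log10 q was 2.31 against 2.72 in the proliferating list and 2.80 against 2.78 in the differentiating list. Peaks of the 15 genes marked in both lists had a median percentile of 78.6 in the proliferating and 78.5 in the differentiating list. Those of the 4 genes of the proliferating list alone lay between 49.8 and 71.1, and those of the 5 genes of the differentiating list alone between 0.325 and 84.4.

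**Figure D3:**
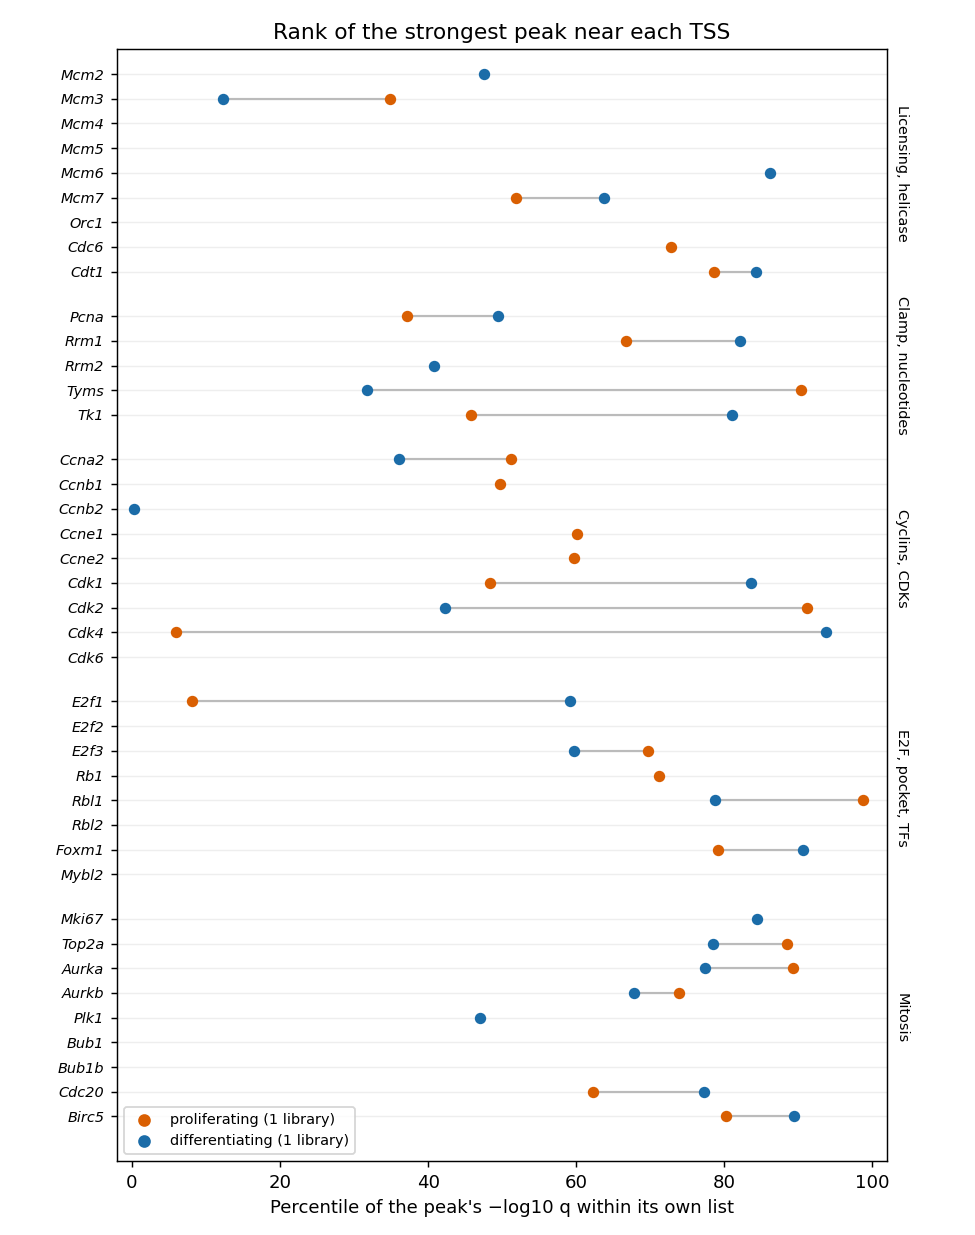
Percentile of −log10 q within its own list (horizontal axis, 0 to 100) of the strongest peak in the promoter region or within 1000 bp of the TSS for each of the 40 genes, in the proliferating (orange) and differentiating (blue) library, with a grey line joining the values of a gene with both. Cdk4 has the longest line, from 5.99 to 93.7, Rbl1 has the rightmost point at 98.7, and the 9 genes without a point have no such peak in either list.

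Of the 24 genes whose promoter was marked at all, 15 were marked in both (62.5%), against 52.0% of all protein-coding genes marked in either. Among those with a CpG-rich promoter it was 11 of 20, near the 3194 of 5591 over all CpG-rich promoters. The peaks shared at least 1 base in 13 of the 15 genes marked in both, all but Tyms and E2f1. This was 86.7%, against 96.3% of all protein-coding genes marked in both. Within 1000 bp of the TSS, 19 of 30 genes were marked in both lists (63.3%, against 59.3%), and the peaks shared at least 1 base in 18 of these 19 (94.7%, against 96.7%). The shared part could be small, as at Ccna2 and Pcna, with 5.66% and 6.63% of the proliferating peak.

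Peaks of these genes often began downstream of the TSS. Of the 24 genes with a peak within 1000 bp in the proliferating list, 11 had the TSS under a peak (45.8%, against 59.4% of all marked protein-coding genes), 11 had peaks only downstream of it (45.8%, against 30.6%), and Cdt1 and Rb1 only upstream (8.33%, against 10.0%). In the differentiating list the TSS was covered in 15 of 25 genes (60%, against 65.4%), the peaks lay only downstream in 8 (32%, against 25.8%) and only upstream in Tyms and Aurka (8%, against 8.81%). The start used for each gene was the outermost annotated one. For 28 of the 34 members present in the RefSeq promoter table it lay within 100 bp of a RefSeq start. The 6 exceptions were Cdk6, Mcm7, E2f1, Cdc6, Pcna and E2f2, whose nearest RefSeq starts were 2408, 539, 466, 350, 134 and 120 bp away. Among these exceptions, Mcm7, Cdc6 and Pcna were counted as downstream only in the proliferating list, and Pcna and E2f1 in the differentiating list. The part of the start used in the downstream shares was not tested.

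Outside the promoter region, 13 of the 40 genes had a peak in the gene body in the proliferating list (32.5%, against 29.4% of all protein-coding genes) and 13 in the differentiating list (32.5%, against 28.2%). Some of these lay just after the promoter region, as at Pcna, Tk1 and E2f3. Peaks that began more than 1000 bp after the TSS were found in 9 genes in the proliferating list (22.5%, against 26.0%) and in 7 in the differentiating list (17.5%, against 24.7%). No such peak overlapped a peak of the other list in either direction (0 of 9 and 0 of 7), against 22.2% and 22.5% of such peaks over all genes. With 9 and 7 peaks these are counts of few peaks, and no test was made of them. Cdk6, E2f2, Mybl2 and Tyms each had 1 such deep peak in both lists, at different places. At Rb1, an intronic peak of the proliferating list 87756 bp into the gene (−log10 q 3.21, percentile 85.5) covered the TSS of Lpar6, a receptor gene nested in that intron. In the differentiating list the deep peaks of Cdk6, Mcm2 and Cdc6 were among the weakest (percentiles 2.45, 4.86 and 5.24).

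The role groups differed in the motifs of their promoters. An E2F word stood in the window from 250 bp before to 50 bp after the TSS in 14 of the 40 genes (35%, against 2.79% of all protein-coding genes), a CHR word in 14 (35%, against 18.0%), a CCAAT box in 26 (65%, against 39.0%) and a TATA box (TATAAA), the element of many cell type-specific promoters, in Mcm7 and Aurkb (5%, against 12.6%). All words were searched on both strands, and no 2 motifs of different kinds shared bases in these genes. Every E2F word holds a CG and most of the 40 genes have a CpG-rich promoter. The share of CpG-rich promoters with each motif was not counted, so the part of base composition in these contrasts was not tested. The window of Mcm7 did not hold its nearest RefSeq start. E2F words were in 7 of 9 licensing genes and 5 of 8 regulators, Cdk1 and Cdk2 held the others, and none of the 9 mitotic or 5 nucleotide supply genes had one. CHR words were in 8 of 9 mitotic genes and in 1 of 9 licensing genes, Mcm2. Birc5 was the mitotic gene without a CHR word or a CCAAT box.

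Of the 7 licensing genes with an E2F word, 5 had no promoter peak in either list, and Mcm3 and Cdt1 had one in both. Among the 24 genes with a marked promoter, 7 had an E2F word (29.2%), 10 a CHR word (41.7%) and 16 a CCAAT box (66.7%). Of the 16 without, 7 had an E2F word (43.8%), 5 of them the licensing genes Mcm4, Mcm5, Mcm6, Orc1 and Cdc6, 4 a CHR word (25%) and 10 a CCAAT box (62.5%). Over all protein-coding genes E2F words were in 4.56% of promoters with a peak and in 1.88% of those without, and CHR words in 12.8% and 20.7%. With 40 genes these are counts of few promoters and no test was made of them. They also depend on the window, since Mcm6, Cdc6 and E2f3, counted as without a promoter peak, had one within 1000 bp of the TSS.

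**Figure D4:**
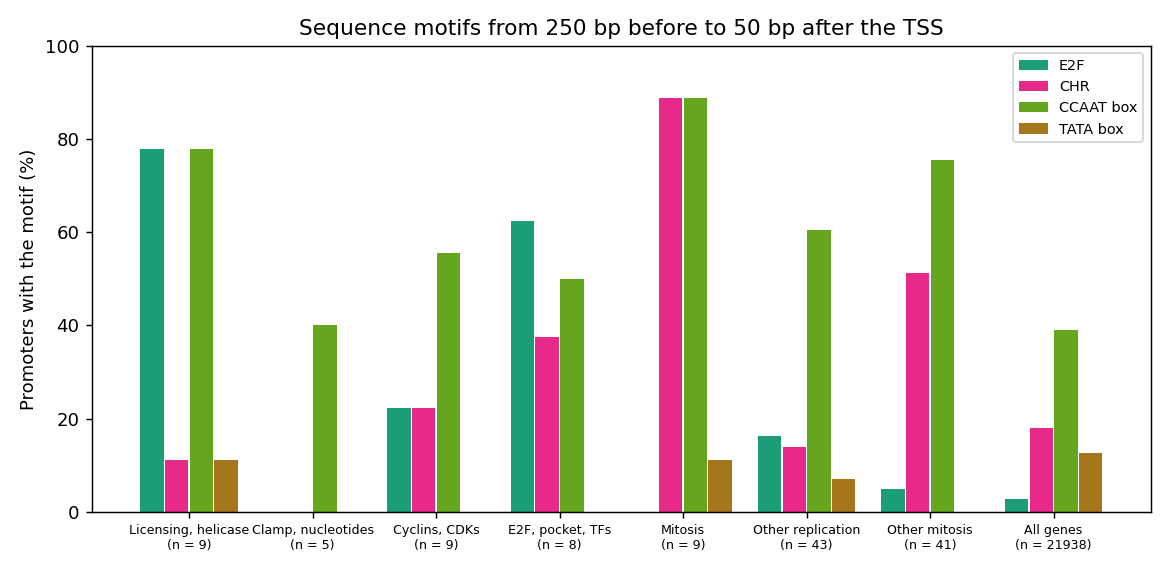
Percentage of promoters (vertical axis) holding an E2F word, a CHR word, a CCAAT box or a TATA box from 250 bp before to 50 bp after the TSS, for the 5 role groups of the 40 genes, the other replication and mitosis genes and all 21938 protein-coding genes with a complete window. E2F words reach 77.8% in the licensing genes and 0% in the mitotic genes, where CHR words reach 88.9%.

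The same lookup was made in 84 other genes of the pathway. A promoter peak was found for 39 of them in the proliferating list (46.4%, against 23.7% of all protein-coding genes), 45 in the differentiating list (53.6%, against 27.7%), 28 in both (33.3%, against 17.6%) and 56 in either (66.7%, against 33.8%). Among the 68 with a CpG-rich promoter it was 32 (47.1%, against 41.4% of all CpG-rich promoters), 38 (55.9%, against 48.8%), 23 (33.8%, against 32.8%) and 47 (69.1%, against 57.4%). By role, 25 of 43 other replication genes and 31 of 41 other mitosis genes were marked in either list. The genes whose weaker peak ranked highest were Cenpa, the centromeric histone (−log10 q 4.46 in the proliferating and 5.22 in the differentiating list), Tacc3, a spindle protein (3.75 and 4.75), and Nek2, a centrosomal kinase (3.89 and 3.44). CHR words were in 21 of the 41 other mitosis genes (51.2%) and 6 of the 43 other replication genes (14.0%), against 18.0% of all protein-coding genes. E2F words were in 2 of the other mitosis genes (4.88%) and 7 of the other replication genes (16.3%), against 2.79%.

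Neighbours and position bear on some of these counts. Of the 40 genes, 7 (17.5%, against 10.9% of all protein-coding genes) had a protein-coding neighbour on the other strand whose TSS lay within 1000 bp, namely Mcm4 with Prkdc, Mcm7 with Ap4m1, Orc1 with Prpf38a, Tk1 with Afmid, Cdk2 with Pmel, Foxm1 with Rhno1 and Aurka with Cstf1. A peak in such a shared start cannot be assigned to either gene. Cdk1, Cdk2 and Cdk4, all marked in both lists, lie on chromosome 10, which held 23.0 and 22.9 peaks per Mb, more than the other chromosomes with members (at most 19.2 and 18.7), and where the promoters of 49.0% of all protein-coding genes were marked in either list and of 27.8% in both. Chromosomes 1, 10 and 15, singled out for their many peaks, held 5 of the 40 genes, 4 of them marked in either list (80%, against 48.5% of all genes there), and without them 20 of 35 genes were marked (57.1%, against 31.5%). The part of chromosome-wide peak density in the calls at Cdk1, Cdk2 and Cdk4 was not tested.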

How the data were processed

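H3K27ac ChIP-seq of Oli-neu cells in 2 states was analysed, with 1 library per state, grouped by the sample labels. The authors mapped reads with Bowtie2 2.1.0 to mm10 (GRCm38), removed PCR duplicates, called broad peaks with MACS2 2.0.10 and removed blacklisted regions, as the submitters' processing notes and the methods give them. Each deposited peak carries 3 values in 1 text cell, which were taken, in the caller's order, to be −log10 q last, −log10 p before it and, at the front, fold enrichment, since the lists have no header. They hold no counts, so no interval was computed. The study's methods report more uniquely mapped reads for the differentiating than for the proliferating library, and the lists were not adjusted for this here. The weakest q was 0.0995 in the proliferating and 0.0983 in the differentiating list, although the study's methods state a q cutoff of 0.05. Peaks with a q over 0.05 numbered 1129 in the proliferating and 3215 in the differentiating list.

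Gene starts and bodies came from GENCODE M21 on the same build, the start being the outermost end of the gene record. Any shared base counted as overlap, as found with Python 3.11.15 and numpy 2.4.6 and checked against bedtools 2.31.1, and tested on simulated data. Figures were drawn with matplotlib 3.10.9, and sequences read with samtools 1.23.1. Promoter regions ran from 3000 bp upstream to 100 bp downstream. Windows for motifs and CpG were 300 bp long. No test was made between the states.

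All 40 genes were named. Members with a peak near the start are given with their peaks, and the others with their distances. Of the other genes, the 3 whose weaker promoter peak had the highest −log10 q are named. Members and lists were chosen with earlier results of these data known. The ATAC-seq libraries (3 siCtrl and 3 siPadi2) were not analysed here. The alternatives tried were other windows, all annotated starts, stricter peak thresholds and a larger overlap.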

Additional observations from a re-analysis of the deposited data

How the results depend on the processing

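Counts of genes with a promoter peak stayed within 1.5 times the reported value with q of at most 0.05, with 6000 bp upstream and with the TSS of every annotated transcript. Calls of single genes were less stable. Of 80 such calls (40 genes in 2 lists), 16 changed with the TSS of every annotated transcript. Cdc6, Pcna, Tk1, E2f2 and E2f3 then had a promoter peak in both lists, and Mcm5 in the proliferating list. With 1000 bp on both sides of the TSS 14 calls changed, with 6000 bp upstream 8, and with q of at most 0.05 1. Stricter settings leave fewer peaks by construction. With −log10 q of at least 5, the 40 genes gave 1 in the proliferating list, against 3.27% of all protein-coding genes. The differentiating list gave 0 (against 4.25%), both lists 0 (against 1.70%) and either list 1 (against 5.81%). The proliferating list alone gave 1 (against 1.57%) and the differentiating list alone 0 (against 2.54%). Gene bodies gave 0 and 0 (against 1.79% and 2.32%). The 84 other genes gave 1, 3 and 4 (proliferating, differentiating, either), against the same 3.27%, 4.25% and 5.81%. With only the peaks whose fold enrichment reached the median of their list, 12 of the 40 genes were called in the proliferating list and 7 in both, and 6 and 7 had a gene body peak. With at least 0.5 of the peak inside the region, 13 of the 40 genes were left in the differentiating list and 9 in both, and 22 and 27 of the 84 other genes. The counts under the fold enrichment and overlap settings are not set beside all protein-coding genes here and are not a result about these genes. With 1000 bp on both sides of the TSS excluded, 7 genes had a gene body peak in the differentiating list, against 24.7% of all protein-coding genes. No paired analysis was possible because each state has 1 library, and leaving out a replicate could not be done. Without replicates or counts, a gene marked in 1 list may differ from its state in the other by less than the spread between cultures, which these lists cannot show.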

Other observations

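The genes were also counted by the complexes their proteins form. These complexes were put together after the values of the single genes were seen, and the counts are a description. For comparison, the promoters of 33.8% of all protein-coding genes were marked in either list, of 23.7% in the proliferating and of 27.7% in the differentiating list. For CpG-rich promoters it was 57.4%, 41.4% and 48.8%, and 33 of the 43 other replication genes and 35 of the 41 other mitosis genes have one. The part of CpG content in the counts by complex was not tested. In the origin recognition complex, which marks replication origins, Orc2, Orc3, Orc4, Orc5 and Orc6 had a promoter peak in either list and Orc1 had none (5 of 6). Of the GINS complex, part of the active helicase, only Gins1 had one (1 of 4). Of DNA polymerase delta, Pold2, Pold3 and Pold4 had one in the differentiating list and the catalytic subunit gene Pold1 had none (3 of 4). None of the 4 had one in the proliferating list, although Pold4 had a peak there from 196 to 466 bp (percentile 94.7), just outside the promoter region. Of DNA polymerase alpha-primase 2 of 4 subunit genes had one in either list, Pola2 and Prim2. Of DNA polymerase epsilon 3 of 4 subunit genes had one in either list, of the clamp loader 2 of 5 and of replication protein A 1 of 3.

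In mitosis, 3 of 4 genes of the kinetochore complex named after Ndc80 had a promoter peak in either list, all but Spc25. The differentiating peak of Ndc80 itself ranked at percentile 99.1 of its list (−log10 q 10.6), against 59.3 (−log10 q 2.12) in the proliferating list. Of the chromosomal passenger complex, Aurkb, Incenp and Birc5 had one and Cdca8 had none (3 of 4). Of condensin I, which compacts chromosomes, 4 of 5 subunit genes had one in the differentiating list and 1 of 5 in the proliferating list. This count depended on the window and on a weak peak, since Smc4 had a proliferating peak from 308 to 1355 bp (percentile 93.9), outside the promoter region, and the differentiating peak of Smc2 had a q of 0.0524 (percentile 5.24). None of these differences was tested, since each state has 1 library.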
